A study of Mus musculus with 8 samples.

Results

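Sfmbt2, Gab1, Jade1 (formerly Phf17), Smoc1 and Slc38a4 are mouse genes known for imprinting in the placenta through H3K27me3 inherited on the maternal chromosome. They were chosen by name, as 5 of the 21896 protein-coding genes in the RefSeq table, with earlier results of these data known. Each was taken as its mm9 gene body, with ends rounded to 1 kb, plus 50 kb on either side. These 5 windows were touched by 115 of the 90158 H3K27me3 peaks of morulae given the mutant demethylase and by 23 of the 4991 peaks of morulae given the active one. The series holds 8 libraries, of which 4 RNA-seq libraries of blastocysts were not analysed here and 2 are inputs. The remaining 2 libraries, 1 per injection, are H3K27me3 ChIP-seq from few cells without cross-linking. Oocytes came from BDF1 females that were 8 weeks old, and the strain is labelled BDF1xPWK, although the injection protocol speaks of BDF1 sperm and another protocol of BDF1 or PWK males. Zygotes of the first group, Kdm6bWT, received mRNA for Kdm6b, a demethylase of lysine 27 on histone H3, and those of the second, Kdm6bMUT, received mRNA for a mutant form. Both mRNAs were injected at 1.8 µg/µl between 2.5 and 4 hours post fertilization, so the groups share injection and culture and differ in the mRNA. Uninjected embryos were not among the ChIP libraries, although the treatment tag of both inputs reads no injection while their titles name one. The number of morulae per ChIP library is not given in the sources used here.

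H3K27me3 is placed on chromatin by Polycomb repressive complex 2 and accompanies gene silencing. Growing mouse oocytes lay it down in broad domains, some of which pass to the embryo on the maternal chromosome and silence that allele, so that only the paternal allele is expressed. A few genes stay imprinted in this way in the placental lineage, where the 5 described here are known members. The peak lists do not separate the parental chromosomes, so all values below are for both alleles together, and gene expression was not examined.

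With 1 library per injection there is no replicate check, and no p-value is given for any comparison. Each comparison is of 1 Kdm6bMUT library with 1 Kdm6bWT library. Read depth is unknown because peak lists carry no read counts, and a shallower library yields fewer and narrower peaks. Over the 19 autosomes, Kdm6bMUT peaks covered 10.3% and Kdm6bWT peaks 0.140% of the length, and 0.591% of the Kdm6bMUT bases lay inside Kdm6bWT peaks. The lists also stop at different p, with a lowest −log10 p per peak of 2.41 for Kdm6bMUT and 3.67 for Kdm6bWT. Their limits in q are close, with a highest q per peak of 0.0984 for Kdm6bMUT and 0.0910 for Kdm6bWT. The unlike p limits therefore do not show that the lists were cut by different rules. Limited to peaks of at least 3.67, the Kdm6bMUT list covered 6.72% of the autosomes, and Kdm6bWT coverage stayed at 0.140%. Whether depth made any part of the difference between the lists was not tested. With 1 library per injection, depth and the injected mRNA cannot be told apart.

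H3K27me3 peaks filled more than the typical share of all 5 gene windows in Kdm6bMUT-injected morulae. Together the windows span 1127 kb, of which Kdm6bMUT peaks covered 668 kb, or 59.3%, against the 10.3% of the autosomes. In Kdm6bWT-injected morulae peaks covered 17.0 kb of the same windows, or 1.51%, against 0.140% of the autosomes. The ratio of covered bases between the lists was 39.3 in the windows and 73.3 over the autosomes. The windows thus carried far less peak coverage in the Kdm6bWT list, though a larger share of it than their length would give. The bases common to both lists came to 14.5 kb, or 2.17% of the Kdm6bMUT bases and 85.3% of the Kdm6bWT bases in the windows. Over the autosomes 43.4% of the Kdm6bWT bases lay in Kdm6bMUT peaks, and the windows are more densely covered by such peaks to begin with.

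**Figure D1:**
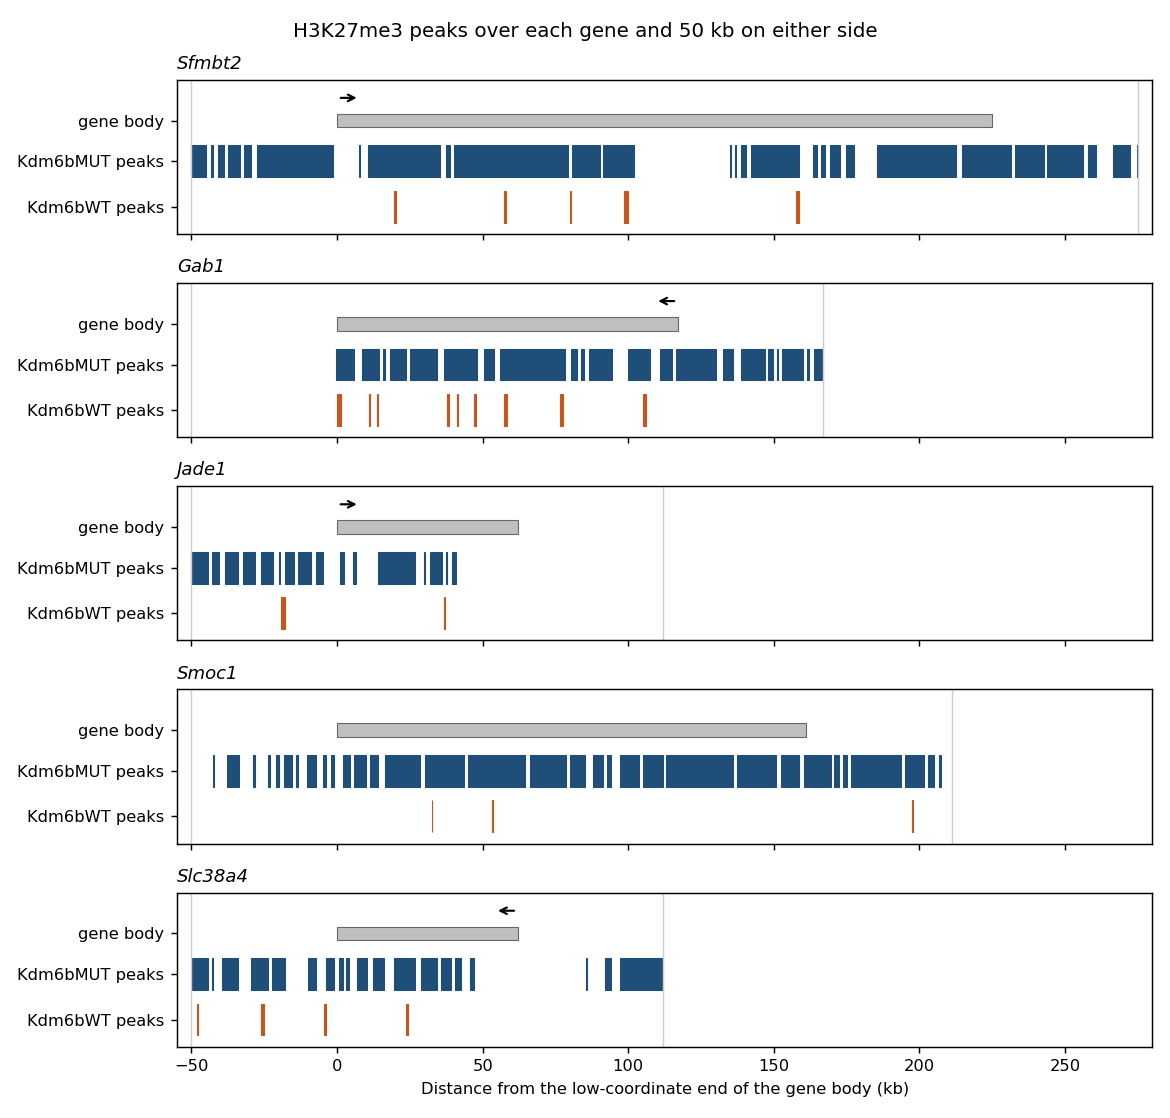
Positions of H3K27me3 peaks over the 5 genes and 50 kb on either side, plotted as distance in kb from the low-coordinate end of the gene body. Blue blocks are Kdm6bMUT peaks, orange blocks Kdm6bWT peaks, grey bars gene bodies, grey vertical lines the window's ends, and arrows mark the direction of transcription where the RefSeq promoter table gives it. Kdm6bMUT blocks fill 32.7% (Jade1) to 71.0% (Smoc1) of a window, and the 23 Kdm6bWT blocks are at most 1.58 kb wide.

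Sequence at the gene start is shown for the 2 genes whose rounded starts differed most in their distance from H3K27me3 peaks. This choice was made after the values were seen. The rounded start of Gab1 lay inside a Kdm6bMUT peak, whereas that of Slc38a4 lay in 38.5 kb without one. With ends rounded to 1 kb, Gab1 is not clearly nearer to a peak than Jade1 (0.944 kb) or Sfmbt2 (1.30 kb). The sequences are the 250 bases upstream of the outermost RefSeq start in GRCm38.p6, at chr8:80880520-80880769 for Gab1 and chr15:97055957-97056206 for Slc38a4. RefSeq gives 2 promoters for Gab1, 3 for Slc38a4, 4 for Jade1 and 2 for Sfmbt2. The outermost alone was counted for each gene. Both genes are on the minus strand, the sequences run 5′ to 3′ along the gene, and capitals mark each CG dinucleotide. Peak positions are in mm9 and the sequences in GRCm38, so the sequences were not laid over the peaks.
Gab1: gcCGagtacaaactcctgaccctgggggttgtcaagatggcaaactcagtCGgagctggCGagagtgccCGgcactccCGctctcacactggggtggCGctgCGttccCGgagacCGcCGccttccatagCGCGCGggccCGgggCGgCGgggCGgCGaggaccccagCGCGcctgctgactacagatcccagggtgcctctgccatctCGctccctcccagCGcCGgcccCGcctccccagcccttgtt
Slc38a4: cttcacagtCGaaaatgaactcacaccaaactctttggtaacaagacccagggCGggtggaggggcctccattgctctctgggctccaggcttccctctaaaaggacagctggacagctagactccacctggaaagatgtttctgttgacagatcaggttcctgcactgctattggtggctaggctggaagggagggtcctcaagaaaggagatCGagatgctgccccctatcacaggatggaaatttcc

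The Gab1 sequence held 24 CG dinucleotides, a number that 12.0% of the 32851 promoter sequences in the table reach or pass over the same 250 bases. The Slc38a4 sequence held 3, which 71.0% of them reach or pass. Jade1 had 16 (reached by 25.4% of promoter sequences) and Sfmbt2 had 8 (43.0%), and the median over the table was 6. CG is its own reverse complement, so the count is the same on either strand. The content of G and C was 70.8% for Gab1, 64.4% for Jade1, 58.4% for Sfmbt2 and 52.8% for Slc38a4, against a median of 52.4%. Among these 4 genes the start that lay farthest from Kdm6bMUT peaks was thus also the one with the fewest CG dinucleotides. These counts describe 4 sequences, too few to tell whether CG number and distance from the peaks are related, and a relation was not tested. Promoter sequences were matched for 4 of the 5 members, Smoc1 being the other.

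**Figure D2:**
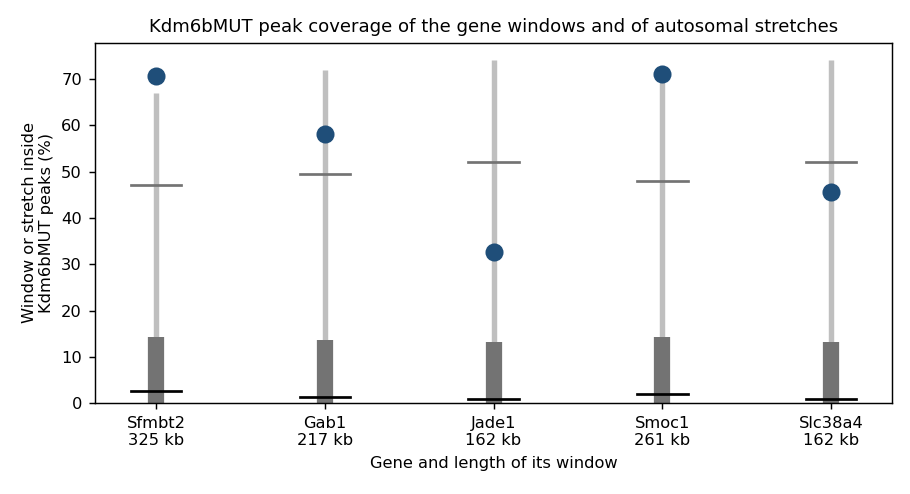
Share of each gene window inside Kdm6bMUT peaks (blue points, %) beside autosomal stretches of the same length laid end to end. Black lines are medians of the stretches, dark bars the lower to upper quartile, grey lines the 5th to 99th percentile, and short grey lines the 95th percentile. Sfmbt2 (70.6%) and Smoc1 (71.0%) lie above the 99th percentile, Gab1 above the 95th, and Slc38a4 and Jade1 between the upper quartile and the 95th.

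Sfmbt2 and Smoc1 had the most extensive H3K27me3 in Kdm6bMUT-injected morulae. Their windows ranked at the 99.4th and 99.1st percentile among all autosomal stretches of equal length, of which there were 7393 and 9206. The window of Gab1 ranked at the 96.8th percentile of 11072 stretches. Slc38a4 and Jade1, whose windows are both 162 kb long, ranked at the 93.1st and 88.5th percentile of 14836 stretches. All 5 members therefore lay above the upper quartile, and 3 of 5 above the 95th percentile. The latter count was 2 among stretches that hold a Kdm6bMUT peak, where Gab1 ranked at 94.9, and 4 with flanks of 100 kb, where Slc38a4 ranked at 96.3. The number of peaks set the members apart less than the bases they covered, with percentiles of 81.8 (Sfmbt2), 84.0 (Gab1), 82.9 (Jade1), 92.5 (Smoc1) and 88.3 (Slc38a4). The 115 peaks were wide, with a median of 3595 bases against 1577 bases in the whole list, and 20 of them (17.4%) reached 10 kb, against 4.27% of the list. Their median fold enrichment over input was 3.22, close to the 3.07 of the whole list and inside its quartiles of 2.87 and 3.29.

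Kdm6bWT peaks were found in all 5 windows, and bases common to both lists in 4 of 5. As background, at least 1 Kdm6bWT peak was present in 39.4% of autosomal stretches of the Sfmbt2 length, 33.7% of the Smoc1 length, 29.4% of the Gab1 length and 23.6% of the length of Jade1 and Slc38a4. At least 1 shared base was present in 19.9%, 16.8%, 14.7% and 11.6% of those stretches. Stretches rich in Kdm6bMUT peaks held Kdm6bWT peaks more often than that. Of the stretches covered at least as much by Kdm6bMUT peaks as the gene's own window, and not touching it, 45 of 48 (93.8%) held a Kdm6bWT peak for Sfmbt2. The shares were 84.5% of 84 for Smoc1, 76.5% of 353 for Gab1, 66.6% of 1016 for Slc38a4 and 61.0% of 1709 for Jade1. The presence of a Kdm6bWT peak was therefore common to most stretches as densely covered as these genes. This comparison was chosen after the values were seen.

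**Figure D3:**
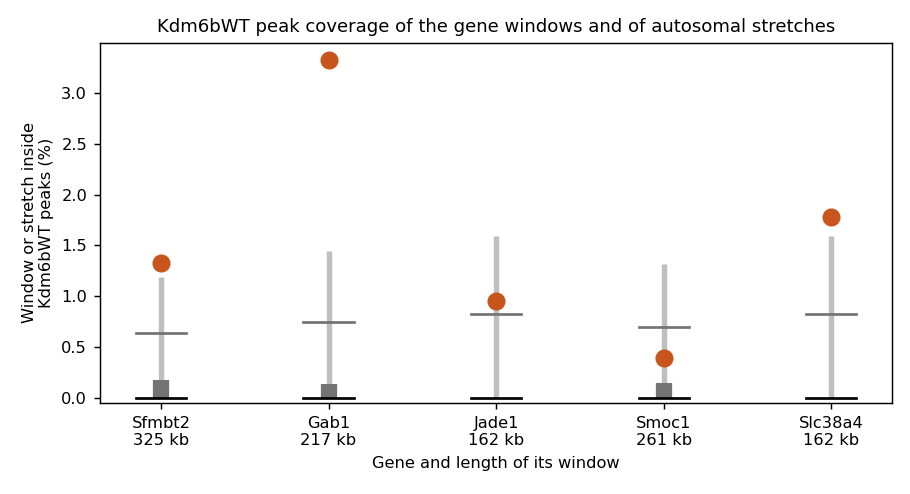
Share of each gene window inside Kdm6bWT peaks (orange points, %) beside autosomal stretches of the same length, drawn as in the plot of Kdm6bMUT coverage. The medians of the stretches are 0. Gab1 (3.33%), Slc38a4 (1.78%) and Sfmbt2 (1.32%) lie above the 99th percentile, Jade1 (0.952%) just above the 95th, and Smoc1 (0.399%) below it.

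The amount of Kdm6bWT coverage differed among the members and did not follow their Kdm6bMUT coverage. Gab1 had 7.22 kb in 9 peaks, the highest of the 5, and 6 of 11072 autosomal stretches matched or passed it, a percentile of 99.9. Sfmbt2 had 4.30 kb in 5 peaks (99.2nd percentile) and Slc38a4 had 2.88 kb in 4 peaks (99.3rd). Jade1 had 1.54 kb in 2 peaks (96.3rd) and Smoc1, with 1.04 kb in 3 peaks, the lowest percentile at 87.1. The place of Gab1 in this order rested on its weaker peaks. With peaks at or above the median fold enrichment of their list, Gab1 had the lowest Kdm6bWT coverage of the 5, 0.618 kb, against 2.76 kb for Sfmbt2, 1.54 kb for Jade1, 1.08 kb for Slc38a4 and 1.04 kb for Smoc1. With all peaks, the ratio of Kdm6bMUT to Kdm6bWT bases was 178 for Smoc1, 53.3 for Sfmbt2, 34.3 for Jade1, 25.7 for Slc38a4 and 17.5 for Gab1.

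**Figure D4:**
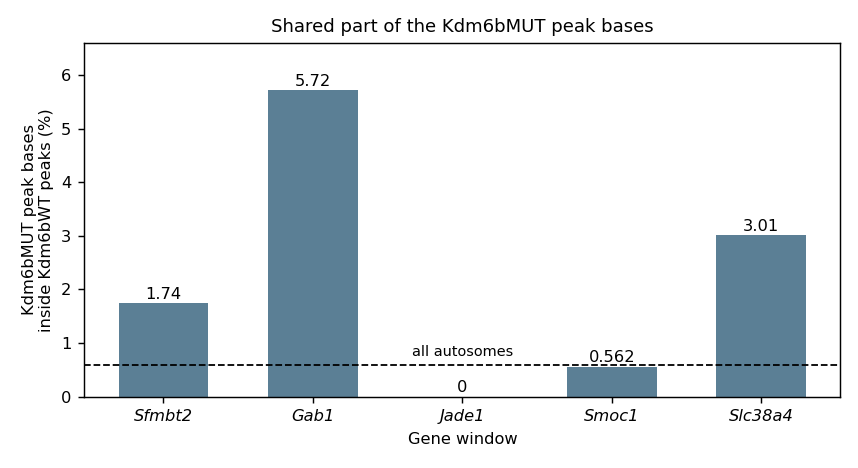
Share of the Kdm6bMUT peak bases of each gene window that lay inside Kdm6bWT peaks (bars, %), with the value over all autosomes (0.591%) as a dashed line. The bars for Gab1, Slc38a4 and Sfmbt2 rise above the line, Smoc1 ends just below it and Jade1 is at 0.

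Gab1 encodes an adaptor protein that links receptor tyrosine kinases to downstream signalling and is needed for placental development. Its body, on the minus strand of chromosome 8 (83288000 to 83405000), was 74.9% covered by Kdm6bMUT peaks, and its window of 217 kb held 126 kb in 21 peaks. The widest peak spanned 22.3 kb inside the body (83344001 to 83366262, fold enrichment 3.55). The highest fold enrichment, 3.71, belonged to a peak of 1220 bases (83371707 to 83372926), also inside the body. On the low side, which is the 3′ end of the gene, the coverage ended with the gene. The last peak began 0.541 kb beyond the rounded end, and no other Kdm6bMUT peak lay in the remaining 49.5 kb of that flank. On the opposite side a Kdm6bMUT peak that began at 83404522, just inside the rounded start, ran out of the gene. Because of the rounding, the start itself may lie in this peak or in the gap after the peak that ended at 83403043. Coverage filled 75.9% of the upstream flank. The Gab1 body coincides with the lower part of a run of 28 Kdm6bMUT peaks, none more than 10 kb apart, that extended over 210 kb from 83287460 to 83497495. In that run all 9 Kdm6bWT peaks lay within or at the edge of the gene body, and none in the part upstream of the gene.

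In Gab1 each of the 9 Kdm6bWT peaks lay entirely inside a Kdm6bMUT peak, and they touched 5 of the 21. Kdm6bMUT peaks covered 74.9% of this body, so such a placement is likely in any case. The share of all Kdm6bWT peaks that lie inside Kdm6bMUT peaks was not counted, for this gene or those below to be set against. The 9 peaks made up 5.72% of the Kdm6bMUT bases of the window and 8.15% of those of the body. Of 353 other stretches at least as covered by Kdm6bMUT peaks, with a median shared part of 0.443% and a highest of 3.53%, 0 reached that value. The widest Kdm6bWT peak, of 1583 bases, sat at the 3′ end of the gene (83287930 to 83289512). Narrow peaks of 318 bases (83298825 to 83299142) and 406 bases (83301620 to 83302025) followed, and then a group of 3 between 83325727 and 83335770, with widths of 731, 300 and 639 bases. The widest Kdm6bMUT peak of the gene held a pair of Kdm6bWT peaks, of 1153 bases (83345154 to 83346306) and 1182 bases (83364407 to 83365588). The last, of 904 bases (83393114 to 83394017), lay 11 kb inside the start. Thus Kdm6bWT peaks were spread along the body, while the start itself was without one. Most of them were weak for their list: 7 of the 9 had a fold enrichment below the list median of 3.84, with a range of 3.47 to 4.59. With peaks of at least the median fold enrichment in each list, the shared part of Gab1 was 0.593%, against 0.289% for the autosomes under the same limit, and below the 1.11% of Sfmbt2, the 0.855% of Slc38a4 and the 0.619% of Smoc1.

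Sfmbt2 encodes a Polycomb-group protein with MBT domains that is needed to maintain trophoblast cells. It is the longest member, on the plus strand of chromosome 2 (10292000 to 10517000), and Kdm6bMUT peaks covered 229 kb of its 325 kb window in 27 peaks, 8 of them of 10 kb or more. The widest peak of all 5 windows lay in its body and spanned 39.1 kb (10332236 to 10371335, fold enrichment 3.48). In the whole Kdm6bMUT list 44 peaks (0.0488%), itself included, were at least as wide. The peak of highest fold enrichment, 3.74, was 6056 bases wide and lay in the downstream flank (10558310 to 10564365). Coverage was 80.9% in the upstream flank, 67.3% in the body and 75.1% in the downstream flank. Its gaps included those around the start, in the middle of the gene and, later in the body, between peaks that ended at 10469473 and began at 10477240. Around the start there were 8.83 kb without a peak, from 1.30 kb upstream to 7.53 kb downstream of the rounded position. In the middle of the body a further 33.0 kb had none (10393950 to 10426954, beginning 102 kb from the start), and the sixth of 10 equal parts of the body was 0.204% covered whereas the third was 100% covered.

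In Sfmbt2 the 5 Kdm6bWT peaks all lay in the body, and 4 of them entirely inside Kdm6bMUT peaks. The first 4 stood in the part before the peak-free middle, at 10311376 to 10312285 (910 bases), 10349321 to 10350074 (754 bases), 10371972 to 10372271 (300 bases) and 10390383 to 10391930 (1548 bases). The fifth, of 788 bases, lay beyond it (10449704 to 10450491). The peak of 300 bases had the highest fold enrichment of the 5, 4.46, and was the one outside Kdm6bMUT peaks, in a gap 0.494 kb from the next. No peak of either list in the windows was narrower than 300 bases, and the lower quartile of the Kdm6bWT list is 304 bases. The shared bases, 4000 in all, were 1.74% of the Kdm6bMUT bases of the window. Of 48 other stretches at least as covered by Kdm6bMUT peaks, 3 reached that part, and their median was 0.609%. Neither flank held a Kdm6bWT peak.

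Slc38a4 encodes a transporter of neutral amino acids. Its body on the minus strand of chromosome 15 (96825000 to 96887000) was 46.8% covered by Kdm6bMUT peaks, and the window held 74.0 kb in 19 peaks. The coverage was absent around the start. Between 96871976 and 96910493, from 15 kb inside the gene to 23.5 kb upstream of it, no Kdm6bMUT peak was present, and the 2 of 10 parts of the body nearest the start had 0% coverage. The other 8 parts had 20.9% to 85.5%. The widest peak, of 17.4 kb (96922203 to 96939620), lay in the upstream flank and crossed the end of the window. The peak with the highest fold enrichment of all 115, 4.60, spanned 5438 bases at the far end of the downstream flank (96775341 to 96780778).

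In Slc38a4 the 4 Kdm6bWT peaks lay on the 3′ side, with 1 in the body and 3 in the downstream flank. The peak in the body had 762 bases (96848720 to 96849481). Those in the flank had 427 bases (96776896 to 96777322), 1038 bases (96799009 to 96800046) and 650 bases (96820579 to 96821228). The first of these fell inside the Kdm6bMUT peak with the highest fold enrichment and itself had the highest of the 4, 4.47. The peak of 650 bases lay 26 bases from the nearest Kdm6bMUT peak without touching it, and the other 3 were entirely inside one. The shared 2227 bases were 3.01% of the Kdm6bMUT bases of the window, a part that 28 of 1016 other stretches at least as covered reached.

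Jade1 encodes a PHD-finger protein that acts as a scaffold of the HBO1 histone acetyltransferase complex. Its body on the plus strand of chromosome 3 (41359000 to 41421000) was 34.8% covered by Kdm6bMUT peaks, the least of the 5, and its window held 52.9 kb in 16 peaks. The peaks were confined to the upstream flank and the first 7 of 10 parts of the body. The upstream flank was 62.7% covered and the downstream flank had 0%, the next peak beyond the gene's end being 195 kb away. The run of peaks that reached into Jade1 began at 41085264, well upstream of the gene, contained 45 peaks and extended over 315 kb to 41399988. The widest peak in the window, 12.8 kb (41373003 to 41385810), lay in the body. The highest fold enrichment, 3.81, belonged to a peak of 2912 bases in the upstream flank (41341184 to 41344095). The median fold enrichment of its Kdm6bMUT peaks, 2.96, was the lowest among the members, which otherwise had 3.14 to 3.29.

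Jade1 was the member with no base common to both lists in its window, although with flanks of 100 kb the shared part was 0.337%. Its 2 Kdm6bWT peaks, of 1242 bases (41339720 to 41340961) and 300 bases (41395778 to 41396077), both fell into short gaps between Kdm6bMUT peaks. The first lay 178 bases and the second 286 bases from the nearest Kdm6bMUT peak. Their fold enrichments were 3.98 and 4.12. A shared part of 0% was not rare, since 88.4% of all autosomal stretches of this length and 810 of the 1709 others at least as covered by Kdm6bMUT peaks had no shared base.

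Smoc1 encodes a secreted calcium-binding glycoprotein of the extracellular matrix. Its body on chromosome 12 (82127000 to 82288000) was the most densely covered, with 82.4% inside Kdm6bMUT peaks, and the window held 185 kb in 32 peaks, 7 of them of 10 kb or more. Each of the 10 parts of the body had at least 56.4% coverage. The widest peak had 22.9 kb (82239992 to 82262874) and lay in the body, while the highest fold enrichment, 4.19, was that of a peak of 818 bases in the high-coordinate flank (82333645 to 82334462). The flanks were unlike each other, with 30.1% coverage on the low side and 75.3% on the high side. The run of 42 peaks to which the gene belonged began at 82084219 in the low flank and reached 146 kb above the body. The stretch of equal length next to the window on the low side had 0 kb of coverage.

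In Smoc1 the 3 Kdm6bWT peaks were narrower than the median of their list, 493 bases. They had 300 bases (82159425 to 82159724), 380 bases (82180156 to 82180535) and 361 bases (82324387 to 82324747). All 3 lay inside Kdm6bMUT peaks and had fold enrichments of 4.13, 4.32 and 4.86, above the list median. Their 1041 bases were 0.562% of the Kdm6bMUT bases, near the 0.591% of the autosomes, and 37 of 84 other stretches at least as covered reached that part. For the body alone the part was 0.513%. With peaks at or above the median fold enrichment of their list the part in the window was 0.619%, against 0.289% for the autosomes.

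**Figure D5:**
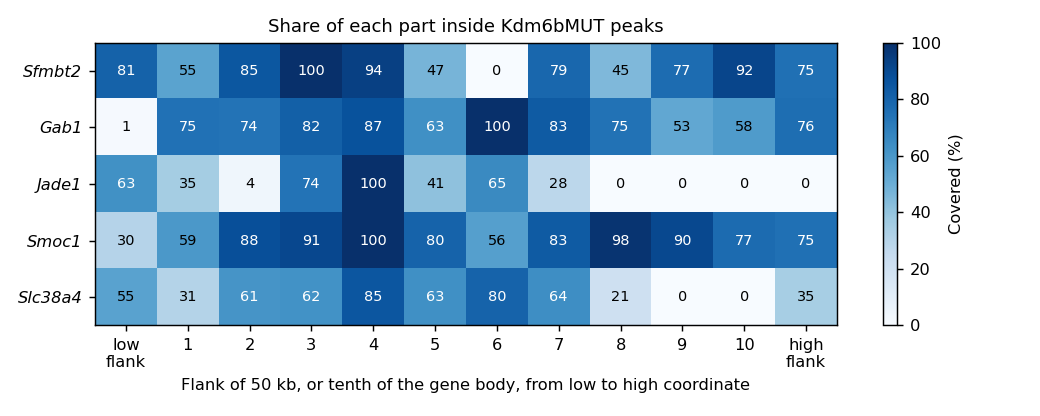
Share of each 50 kb flank and of each of 10 equal parts of the gene body inside Kdm6bMUT peaks (%), from the low-coordinate to the high-coordinate side. The start is on the left for Sfmbt2 and Jade1 and on the right for Gab1 and Slc38a4. Coverage is missing or nearly so in the middle of Sfmbt2, in the low flank of Gab1, from body part 8 through the high flank of Jade1 and around the start of Slc38a4.

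The members differed in where the H3K27me3 domain stopped, as the plot of coverage by gene part shows. In Gab1 the domain ended at the 3′ end of the gene, and in Jade1 within the gene before its 3′ end. The promoter reference used here gave a strand for 4 members, and not for Smoc1. In these 4 the distance from the start to the nearest Kdm6bMUT peak was 0 kb for Gab1, 0.944 kb for Jade1, 1.30 kb for Sfmbt2 and 15 kb for Slc38a4. Body ends were rounded to 1 kb, so distances of that order do not place the start inside or outside a peak. The nearest Kdm6bWT peak to the start was 11 kb away in Gab1, 18.0 kb in Jade1, 19.4 kb in Sfmbt2 and 37.5 kb in Slc38a4. Kdm6bWT peaks are sparse, and 3.87% of the autosomal length lies within 10 kb of one, so their absence from the starts is the usual case. Over all 5 windows, 15 of the 115 Kdm6bMUT peaks were touched by a Kdm6bWT peak, among them 8 of the 20 that reached 10 kb. In the whole Kdm6bMUT list 2.66% of peaks were touched, and 14.1% of the 3847 peaks that reached 10 kb. The touched peaks numbered 5 in Gab1, 4 in Sfmbt2, 3 each in Smoc1 and Slc38a4 and 0 in Jade1.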

How the data were processed

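H3K27me3 ChIP-seq peak lists of morulae injected with Kdm6bWT or Kdm6bMUT mRNA were used, 1 library each, grouped by sample title. Per the submitters' processing notes, Bowtie2 2.2.2, MACS2 and build mm9 were used in the series, without a step for each. Each list as deposited by the authors gives, per peak, a fold enrichment over input (a ratio), a −log10 p, a −log10 q and a score. No source used here gives the caller's settings.

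Gene bodies came from the mm9 positions given with the choice of members. Their lengths, 62 to 225 kb, were within 2 kb of those in the RefSeq table for GRCm38.p6, which served for names, strand and promoter sequence. Peaks were clipped at window ends, and sharing needed 1 base. Ranks compare a window with every autosomal stretch of its length, laid end to end from the first peak, and are descriptions. No random draws were made. Python 3.11.15, numpy 2.4.6, pandas 2.3.3 and matplotlib 3.10.9 were used. Interval sums were tested on simulated data.

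The text names all 5 members, the widest and highest-fold Kdm6bMUT peak of each window and every Kdm6bWT peak. Members and measures were chosen with earlier results of these data known. Other imprinted genes were not placed, for want of an mm9 annotation here. Alternatives changed the flank, the clipping, peak limits and the stretches.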

Additional observations from a re-analysis of the deposited data

How the results depend on the processing

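No paired analysis was possible because there is a single ChIP library for each mRNA, and for the same reason no replicate could be left out. Covered bases cannot rise under smaller windows or fewer peaks. Percentiles and shared parts can move either way, because the stretches or the peaks they are set against change as well. Why these values moved was not tested. Without flanks Kdm6bMUT peaks covered 422 kb of the 5 genes, and the median percentile was 98.4. Flanks of 20 kb gave 98.0, the p limit of the Kdm6bWT list 97.8 and stretches with a Kdm6bMUT peak 94.9. Peaks of 1 kb or more left 7.75 kb of Kdm6bWT coverage and a shared part of 0.993%, against 0.299% for the autosomes. Peaks at or above the list's median fold enrichment left 7.04 kb and 0.797%, against 0.289%. Without Gab1, an alternative chosen after seeing the data, the values were 9.76 kb, 1.34% and a median percentile of 96.1. All 5 members stayed above the 75th percentile in each of the 10 planned settings. Of 155 values for single genes, 95 stayed within 1.5 times the reported value, or inside the 95% exact interval of a percentile, and 60 did not. That interval treats the stretches as independent draws, although they are laid end to end and runs of peaks can cross several. It served as a limit for sorting the values and does not measure the uncertainty of a rank. The shared part of Gab1 ranged from 0.593% to 8.15%, that of Smoc1 from 0% (peaks of 1 kb or more) to 0.718%, and that of Jade1 from 0% to 0.337%.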

Other observations

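Stretches of equal length next to the windows also differed among the genes. For Slc38a4 both neighbours were more densely covered by Kdm6bMUT peaks than the gene's own window (59.0% and 71.7% against 45.7%), and for Jade1 this held on the upstream side alone (70.4% against 32.7%, with 4.00% downstream). Sfmbt2 (70.6%), Gab1 (58.1%) and Smoc1 (71.0%) were each more covered than either neighbour, the highest of which had 55.9%, 42.3% and 27.5%. Kdm6bWT coverage was higher in the window than in either neighbour for Sfmbt2 (4.30 kb against 0.796 and 1.63 kb), Gab1 (7.22 kb against 2.25 and 0.727 kb), Jade1 (1.54 kb against 0.300 and 0 kb) and Slc38a4 (2.88 kb against 0.276 and 1.60 kb). In Smoc1 the neighbour on the high side had more (1.748 kb against 1.04 kb). By order in the RefSeq table, the nearest protein-coding genes are Itih5 and Prkcq beside Sfmbt2, Smarca5 and Usp38 beside Gab1, Pgrmc2 and Sclt1 beside Jade1, Slc10a1 and Slc8a3 beside Smoc1, and Slc38a2, a related amino acid transporter, and Amigo2 beside Slc38a4. They were not placed on the peaks.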
